A study of Mus musculus with 6 samples.

Results

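The genes described here are 10 components of transforming growth factor beta (TGF-β) signaling, chosen by name from the 34745 genes of the count tables: the ligands Tgfb1, Tgfb2 and Tgfb3, the receptors Tgfbr1 and Tgfbr2, the signal-carrying SMADs Smad2 and Smad3, the feedback inhibitors Smad7 and Skil, and the extracellular target Tgfbi. Each of the 10 has a row in all 6 count tables. The RNA came from 889 cells, a murine lung cancer line of the C57BL/6 strain that was cultured in medium with fetal bovine serum and given no further treatment in the labels. There were 3 libraries labelled sg-con, from cells with Cas9 and a control sgRNA, and 3 labelled sg-kiaa1522, from cells with Cas9 and an sgRNA against kiaa1522, and all cells carried a lentiviral Cas9 vector with the control vector holding an sgRNA against EGFP. The study asked which genes and pathways change when kiaa1522 is targeted. Which of the kiaa1522 sgRNAs the sequenced cells carried, and whether they were clones, is not given in the sources used here, and neither is whether the replicates were separate cultures, so the p-values measure the spread between these libraries, which may be technical.

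TGF-β ligands are secreted in a latent form, bound to their own propeptide and often to a latent TGF-β binding protein in the matrix. Once released, a ligand binds the type II receptor TGFBR2, which phosphorylates the type I receptor TGFBR1, and TGFBR1 phosphorylates SMAD2 and SMAD3. These join SMAD4, enter the nucleus and change the transcription of target genes, among them SMAD7 and SKIL, which act back on the pathway as inhibitors. In epithelial tumors the pathway is known both for growth arrest and for invasion and matrix production.

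The libraries held between 12220001 and 18609376 counts, and the 10046 genes whose counts over all libraries summed to above 500 were tested. The targeted gene, listed as C77080, was higher in the libraries labelled sg-kiaa1522, with 127 ± 2.93 CPM (TMM-scaled counts relative to library size, mean ± SD, n = 3) in sg-con and 210 ± 6.38 CPM in sg-kiaa1522. Its log2 fold change was 0.73 (SE 0.0569, adjusted p = 9.1e-05), so the libraries are named by their labels and not by a loss of kiaa1522 mRNA. A swap of the labels, which would turn every direction below, and an edited gene that keeps its mRNA cannot be told apart from these counts, and the study's protein and reporter measurements in 889 cells were not used here. The library sg-con replicate 1 stood further from the other control libraries (chi-square per degree of freedom 23.4 and 30.7) than they stood from each other (12.6) or than the sg-kiaa1522 libraries did among themselves (12.3 to 12.8). Of the epithelial markers, Epcam had 0 counts in all 6 libraries, which allows at most between 0.162 and 0.247 CPM for counting error alone, while the summed level of the 5 markers, mostly keratins, was 3810 to 4580 CPM in sg-con and 3220 to 3500 CPM in sg-kiaa1522. Among them Cdh1, which encodes E-cadherin, lay at 52.1, 55.5 and 61.8 CPM in sg-con and at 21.3, 19.3 and 21.3 CPM in sg-kiaa1522, without overlap. The keratin gene Krt8 was also lower without overlap (1140, 1310 and 1390 CPM against 1000, 966 and 935 CPM). The same held for Krt19 (673, 851 and 870 CPM against 521, 466 and 453 CPM), while the groups met for Krt18. The 7 lung epithelial markers summed to 128 to 189 CPM in sg-con and 111 to 167 CPM in sg-kiaa1522. Sftpb (17.0, 24.0 and 23.9 CPM against 12.3, 12.8 and 15.6 CPM) was lower in sg-kiaa1522 without overlap. So was Napsa, near 1 CPM in sg-con (19, 18 and 21 counts against 1, 5 and 3). Nkx2-1 varied within both groups (55.7, 59.1 and 13.6 CPM, and 10.9, 9.49 and 39.5 CPM). Like Sftpc, Sftpa1 and Scgb1a1, it had a lower mean in sg-kiaa1522, with overlap. Foxa2, the most abundant, went the other way, with overlap (90.1, 71.9 and 83.6 CPM in sg-con, 85.3, 118 and 106 CPM in sg-kiaa1522). Leukocyte markers (6 genes, with Cd3e and Itgam at 3 counts or fewer in every library) summed to 2.27 to 6.03 CPM in sg-con and 11 to 14 CPM in sg-kiaa1522, but of the 6 only Cd68 was higher in every sg-kiaa1522 library (19 to 23 counts against 122 to 235), while Lyz2 and Ptprc, the defining pan-leukocyte gene, had at most 17 and 2 counts there. Endothelial markers (5 genes, with Tie1 at 3 counts or fewer in every library) summed to 3.42 to 5.28 CPM and 9.31 to 11.5 CPM, and here only Vwf was higher in every sg-kiaa1522 library (40 to 66 counts against 128 to 189), while Cdh5 was at 0 counts in all of them. The part of Cdh1, Krt8, Krt19, Sftpb, Napsa, Cd68 and Vwf in the results below was not tested.

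Of the 10 genes, 9 passed the count filter and Tgfbi did not. At an adjusted p of at most 0.05, Smad7 and Tgfb3 were lower in the libraries labelled sg-kiaa1522, Tgfb1, Tgfb2 and Tgfbr1 were higher, and Tgfbr2, Smad2, Smad3 and Skil were not called. By the same rule, 52.5% of all tested genes were called, 26.3% as lower and 26.3% as higher, so 2 and 3 calls among 9 genes are near the share of the whole transcriptome. None of the 9 passed the threshold of the study's methods, which also asks for a log2 fold change of 1 or more in either direction and which 7.08% of tested genes passed, 4.34% as lower and 2.74% as higher. The median log2 fold change of the 9 genes was 0.121, against -0.007 over all tested genes. The CPM values of the groups did not overlap for the 5 called genes, a pattern found in 61.7% of tested genes. In bulk RNA, a change in the share of cells that use a gene and a change in RNA per cell cannot be told apart.

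**Figure D1:**
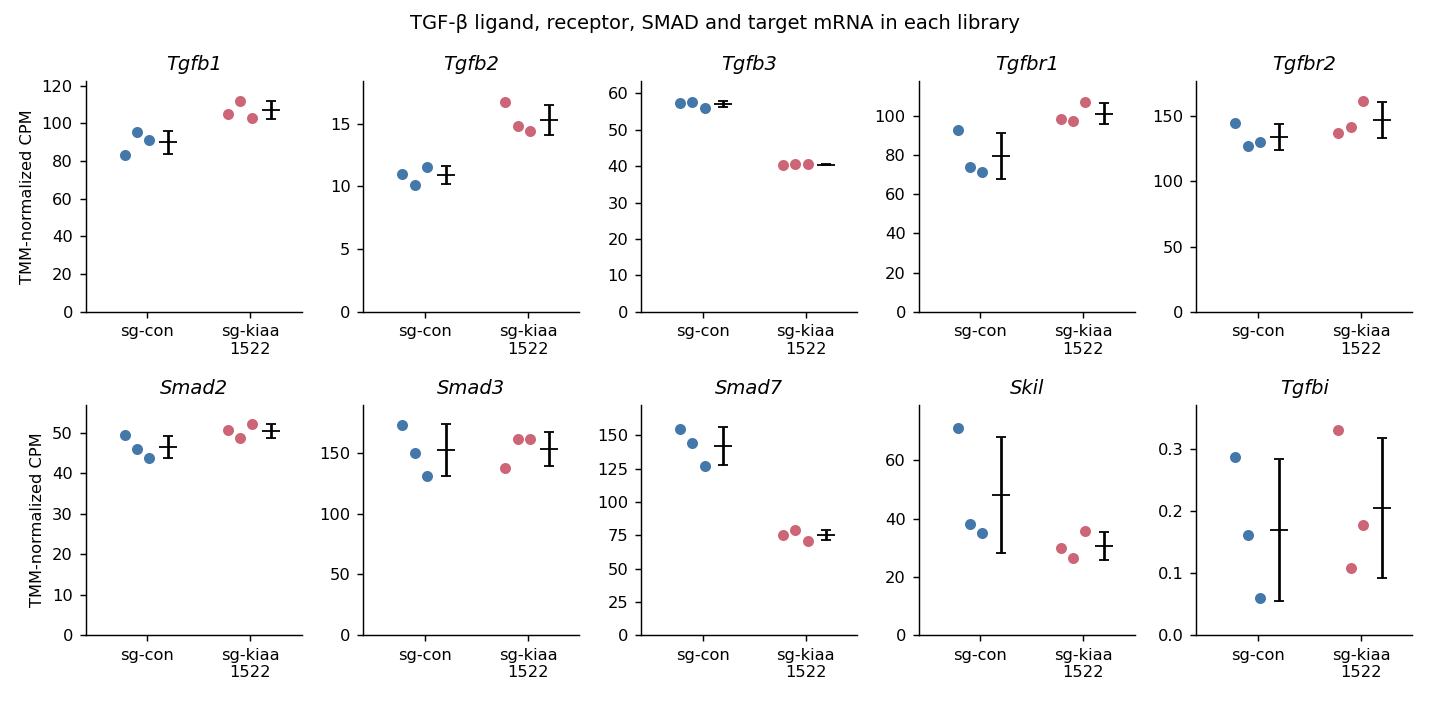
TMM-normalized CPM (vertical axes, from 0, a separate scale per gene) of the 10 genes in the 3 libraries labelled sg-con (blue points) and the 3 labelled sg-kiaa1522 (red points), with the mean and SD of each group in black. Smad7 and Tgfb3 lie lower and Tgfb1, Tgfb2 and Tgfbr1 higher in sg-kiaa1522 without overlap, the first sg-con point of Skil stands at 71.0 CPM above all others, and Tgfbi stays at or below 0.33 CPM.

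The 3 ligand genes did not move together: Tgfb1 and Tgfb2 mRNA rose and Tgfb3 mRNA fell in the libraries labelled sg-kiaa1522. Tgfb1 (ENSMUSG00000002603, GRCm38 chromosome 7, 25687002 to 25705077, plus strand) encodes the ligand that most cell types secrete. It was at 83.4, 95.4 and 91.0 CPM in sg-con and at 105, 112 and 103 CPM in sg-kiaa1522. The lowest sg-kiaa1522 library was above the highest control library, but the step between the groups was small, with a fold of 1.19. The log2 fold change was 0.25 (SE 0.0735, 95% interval 0.08 to 0.42, adjusted p = 0.024), and 29.6% of all tested genes had a log2 fold change at least as high. The call depended on the libraries: it was lost without sg-con replicate 3 (adjusted p = 0.051), without sg-kiaa1522 replicate 2 (adjusted p = 0.094) and without sg-kiaa1522 replicate 3 (adjusted p = 0.052).

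Tgfb2 (ENSMUSG00000039239, chromosome 1, 186622792 to 186705989, minus strand) encodes the ligand that needs the co-receptor betaglycan for strong binding to TGFBR2. Its level was 11, 10.1 and 11.5 CPM in sg-con, from 191, 187 and 192 counts, and 16.7, 14.8 and 14.4 CPM in sg-kiaa1522, from 203, 272 and 245 counts. All 3 sg-kiaa1522 libraries were above all 3 control libraries. Its log2 fold change of 0.50 (SE 0.111, 95% interval 0.24 to 0.75, adjusted p = 0.0073) was the largest rise among the 9 tested genes and stayed between 0.43 and 0.54, and called, with each library left out. It shares 124 exon bases (2.141% of its exon length) with an antisense gene, Gm29491, that had at most 1 count in a library.

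Tgfb3 (ENSMUSG00000021253, chromosome 12, 86056745 to 86079041, minus strand) encodes the ligand known from palate fusion and lung development. It showed the tightest replicates of the set, with 57.3, 57.6 and 56.1 CPM in sg-con and 40.2, 40.6 and 40.5 CPM in sg-kiaa1522. The gap between the groups was many times the spread within them. Its log2 fold change was -0.49 (SE 0.0685, 95% interval -0.65 to -0.34, adjusted p = 0.00088), a fold of 0.71, and it lay between -0.51 and -0.49 with each library left out. Tgfb3 overlaps the antisense genes Gm37804 (163 exon bases, 0 counts in every library) and Gm48008 (257 exon bases, 7.597% of its exon length, not analysed here), and without stated strand-specific counting their reads cannot be told apart.

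Set against each other, the ligands changed their mix. Per kb of exon, Tgfb1 supplied 46.8%, 50.2% and 49.3% of the summed ligand mRNA in sg-con and 58.5%, 60.4% and 58.7% in sg-kiaa1522. The share of Tgfb3 went the other way, from 47.9%, 45.2% and 45.3% to 33.4%, 32.6% and 34.2%. Thus Tgfb1 and Tgfb3 stood near parity in the control libraries and Tgfb1 was ahead in each library labelled sg-kiaa1522. Tgfb2 stayed the minor ligand, with a share of 5.14% ± 0.447 (SD, n = 3) in sg-con and 7.4% ± 0.627 in sg-kiaa1522. For each of the 3 shares the groups did not overlap, and an exact two-sided permutation test over the libraries gave p = 0.1, the smallest that 3 against 3 allows. The size of a share depends on the gene length used: with the mean transcript length the share of Tgfb1 was 76.1% ± 1.38 in sg-con and 80.9% ± 0.866 in sg-kiaa1522, and that of Tgfb3 was 17.7% ± 0.92 and 11.2% ± 0.371, so the parity in control libraries holds for summed exons only. A ratio of counts that needs no length, chosen after the values were seen, gave 1.46, 1.66 and 1.62 counts of Tgfb1 per count of Tgfb3 in sg-con and 2.61, 2.76 and 2.55 in sg-kiaa1522.

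**Figure D2:**
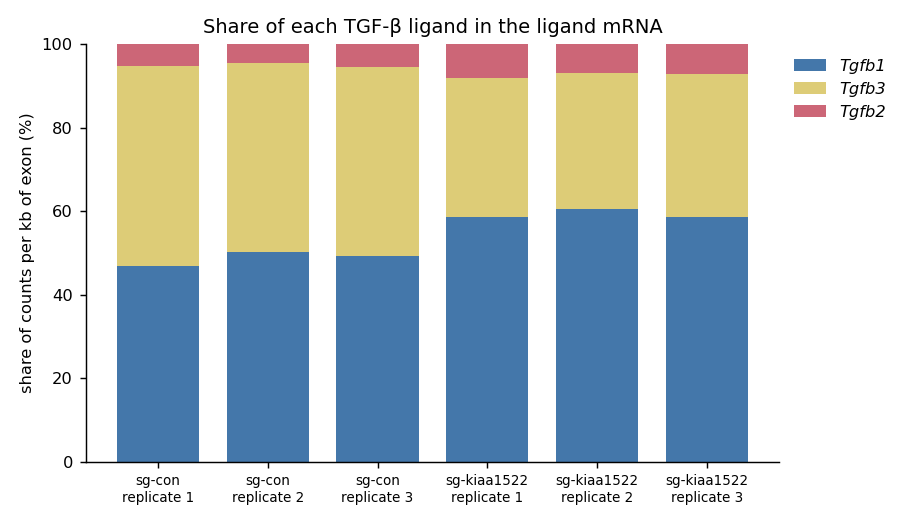
Share (%) of Tgfb1 (blue), Tgfb3 (yellow) and Tgfb2 (red) in the summed counts per kb of exon of the 3 ligand genes, 1 stacked bar per library. The blue part ends between 46.8% and 50.2% in the libraries labelled sg-con and between 58.5% and 60.4% in those labelled sg-kiaa1522.

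The receptors differed in whether they passed the test. Tgfbr1 (ENSMUSG00000007613, chromosome 4, 47353222 to 47414931, plus strand), the kinase that phosphorylates SMAD2 and SMAD3, was at 92.8, 73.6 and 71.4 CPM in sg-con and at 98.4, 97.4 and 107 CPM in sg-kiaa1522. The first control library came close to the sg-kiaa1522 range and the other controls lay well below it. Its log2 fold change was 0.35 (SE 0.109, 95% interval 0.09 to 0.60, adjusted p = 0.029). Without sg-con replicate 1 it was 0.47 (adjusted p = 0.0014). With any of the other libraries left out it lay between 0.27 and 0.38 and the call was lost: the adjusted p was 0.10 without sg-con replicate 2, 0.087 without sg-con replicate 3, and 0.058, 0.059 and 0.099 without sg-kiaa1522 replicates 1, 2 and 3.

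Tgfbr2 (ENSMUSG00000032440, chromosome 9, 116084293 to 116175360, minus strand), the receptor that binds the ligand first, was at 145, 127 and 130 CPM in sg-con and at 137, 142 and 162 CPM in sg-kiaa1522. The groups overlapped. Its log2 fold change of 0.13 (SE 0.0878, adjusted p = 0.25) had a 95% interval of -0.07 to 0.34, which still holds a rise as large as the estimate for Tgfb1. The count ratio of Tgfbr1 to Tgfbr2, also chosen after the values were seen, was 0.589 ± 0.0451 (SD, n = 3) in sg-con and 0.689 ± 0.0302 in sg-kiaa1522 (exact two-sided permutation test, p = 0.1), and the groups did not overlap.

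The sequences before the annotated starts of the 3 genes that were higher are printed because the data put these genes on the same side. Each is the 250 bases upstream of a RefSeq start on GRCm38.p6, read 5′ to 3′ on the gene's strand: chr7:25686752-25687001 on the plus strand for Tgfb1, chr1:186705990-186706239 on the minus strand for Tgfb2, and chr4:47352972-47353221 on the plus strand for Tgfbr1, the one of its RefSeq starts that meets the start of the annotated gene. Capitals mark the matches to 5 motifs searched on both strands: the SMAD palindrome GTCTAGAC, the SMAD box CAGAC, the GC-rich SMAD motif GGCGCC, the GC box GGGCGG that Sp1-type factors bind, and the TATA box TATAAA. No marked matches overlap each other in these windows.
Tgfb1: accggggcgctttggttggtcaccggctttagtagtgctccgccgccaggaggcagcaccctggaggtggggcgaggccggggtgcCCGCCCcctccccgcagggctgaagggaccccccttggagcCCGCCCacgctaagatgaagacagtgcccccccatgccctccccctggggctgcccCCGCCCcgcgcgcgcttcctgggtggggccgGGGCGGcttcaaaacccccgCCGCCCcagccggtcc
Tgfb2: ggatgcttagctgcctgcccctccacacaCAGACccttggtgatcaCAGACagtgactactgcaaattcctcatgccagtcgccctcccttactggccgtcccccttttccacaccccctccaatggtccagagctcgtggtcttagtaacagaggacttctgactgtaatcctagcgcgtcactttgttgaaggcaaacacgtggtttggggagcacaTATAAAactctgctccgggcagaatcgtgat
Tgfbr1: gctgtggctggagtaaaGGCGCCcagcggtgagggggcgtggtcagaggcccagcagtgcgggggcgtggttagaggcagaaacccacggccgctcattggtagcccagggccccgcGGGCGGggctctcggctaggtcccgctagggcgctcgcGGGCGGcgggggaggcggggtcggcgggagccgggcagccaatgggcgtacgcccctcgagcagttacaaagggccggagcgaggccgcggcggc

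Tgfb1 and Tgfbr1 have GC-rich windows (75.2% and 74.8% G or C, against a median of 52.4% over 32536 promoter windows of the same length) with 5 and 2 GC boxes, a motif found in 33.0% of all windows. The Tgfb2 window is at 53.6% and holds no GC box, but a TATA box 31 bases before the start (12.3% of all windows hold one) and 2 SMAD boxes (42.2% of all windows hold at least 1). Tgfbr1 has 1 GGCGCC match 233 bases before its start, a motif in 9.7% of windows. A further RefSeq start inside Tgfbr1, with the window chr4:47385966-47386215 (not printed), is unlike the printed one, with 52.8% G or C, 1 SMAD box and no match to the other motifs, and the counts per gene do not say which start was used. The palindrome was in none of the 3 windows and in 0.2% of all windows. Such matches also occur in genes that were not called. The Smad3 window is at 69.2% G or C with 2 GC boxes and no SMAD box. The Tgfbr2 window is at 58.4% with 1 SMAD box and no GC box. These matches are a description of letters, and binding was not measured here.

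SMAD2 and SMAD3 are the proteins through which the receptors signal, and their mRNA was not called in either direction. Smad2 (ENSMUSG00000024563, chromosome 18, 76241580 to 76310963, plus strand) was at 49.5, 46.0 and 43.9 CPM in sg-con and 50.6, 48.7 and 52.3 CPM in sg-kiaa1522, with a log2 fold change of 0.12 (SE 0.0799, 95% interval -0.07 to 0.31, adjusted p = 0.24). Smad3 (ENSMUSG00000032402, chromosome 9, 63646767 to 63757994, minus strand) was at 173, 150 and 131 CPM in sg-con and 137, 161 and 161 CPM in sg-kiaa1522, with a log2 fold change of 0.02 (SE 0.114, 95% interval -0.25 to 0.28, adjusted p = 0.92). The groups overlapped for both genes, and the Smad3 interval reaches about as far as the Tgfb1 estimate in either direction. Smad3 was the more abundant of the pair per kb of exon, with 83.7% ± 1.09 (SD, n = 3) of their sum in sg-con and 82.7% ± 1.46 in sg-kiaa1522 (exact two-sided permutation test, p = 0.5). Their shared partner Smad4, which is not one of the 10 genes, was higher, at 107 ± 10.9 CPM in sg-con and 148 ± 7.64 CPM in sg-kiaa1522 (log2 fold change 0.47, SE 0.0869, adjusted p = 0.0033).

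Among the feedback inhibitors, Smad7 had the largest change of the 9 tested genes. Smad7 (ENSMUSG00000025880, chromosome 18, 75367529 to 75395935, plus strand) encodes an inhibitory SMAD that blocks TGFBR1 and brings ubiquitin ligases to it. It fell from 155, 144 and 127 CPM in sg-con to 75.5, 79.3 and 71.1 CPM in sg-kiaa1522, which was 2701, 2677 and 2120 counts against 916, 1453 and 1207. Every sg-kiaa1522 library was far below the lowest control library. The log2 fold change was -0.92 (SE 0.0885, 95% interval -1.12 to -0.71, adjusted p = 0.00019), a fold of 0.529, and 5.4% of tested genes fell at least as far. With each library left out it lay between -1.0 and -0.86 and remained called.

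Skil (ENSMUSG00000027660, chromosome 3, 31095058 to 31122577, plus strand) encodes SnoN, a repressor that binds SMAD complexes on target genes and is itself a quick SMAD target. Its level was 71.0, 38.3 and 35.0 CPM in sg-con and 30.0, 26.4 and 35.8 CPM in sg-kiaa1522. The first control library stood far above all others, and the third lay within the sg-kiaa1522 range. The log2 fold change of -0.65 (SE 0.27, 95% interval -1.28 to -0.02) missed the threshold in edgeR's quasi-likelihood test (adjusted p = 0.078). Without sg-con replicate 1 it was -0.26 (adjusted p = 0.14). DESeq2 called Skil (log2 fold change -0.64, adjusted p = 0.021), and edgeR did so when every gene with a count was tested (adjusted p = 0.042) and when sg-con replicate 3 was left out (-0.84, adjusted p = 0.036).

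**Figure D3:**
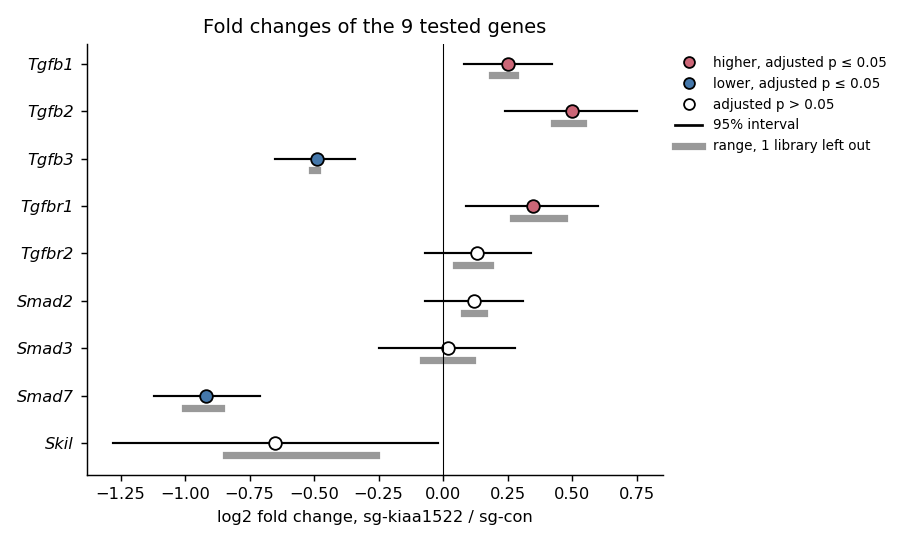
Log2 fold change of the libraries labelled sg-kiaa1522 over sg-con (horizontal axis) for the 9 tested genes, with points filled red (higher), blue (lower) or white (not called), black lines for the 95% interval, and grey bars for the range over fits that leave out 1 library. Smad7 at -0.92 and Tgfb3 at -0.49 lie left of 0 with narrow grey bars, while the grey bar of Skil runs from -0.84 to -0.26 and that of Smad3 crosses 0.

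Tgfbi (ENSMUSG00000035493, chromosome 13, 56609523 to 56639562, plus strand), a secreted matrix protein named for its induction by TGF-β, was close to undetected. It had 5, 3 and 1 counts in sg-con and 4, 2 and 3 counts in sg-kiaa1522, 18 in all. Since 3 counts correspond to between 0.162 and 0.247 CPM, no fold was computed. In edgeR's fit of every gene with a count its adjusted p was 0.89, and at this depth only a large difference could have been called.

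Ordered by level per length (TPM from summed exons, mean over 3 libraries), sg-con libraries held Smad7 at 80.8 and Smad3 at 70.3, whose ranges overlapped, then Tgfb1 at 45.7, Tgfb3 at 43.2 and Tgfbr2 at 42.1, where each overlapped the next. Tgfbr1 followed at 31.2 TPM, Smad2 and Skil at 13.6 and 12.8 TPM with overlapping ranges, Tgfb2 at 4.81 TPM and Tgfbi at 0.116 TPM. In the libraries labelled sg-kiaa1522 the order began with Smad3 at 75.6 TPM and Tgfb1 at 57.9 TPM, which did not overlap. Tgfbr2, Smad7 and Tgfbr1 came next at 49.1, 45.5 and 42.3 TPM, each overlapping its neighbour, then Tgfb3 at 32.7, Smad2 at 15.7, Skil and Tgfb2 at 8.68 and 7.24 with overlap, and Tgfbi at 0.149. Smad7 thus went from the first to the fourth place. With the mean transcript length Smad3 led in both groups, at 142 and 148 TPM, and Smad7 went from the second to the third place, at 117 and 63.9 TPM.

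For the gene with the largest log2 fold change in each role, the tested gene with the most alike profile was sought by Pearson's r of log2 CPM over the 6 libraries, which is a description of 6 points that share the contrast between the groups. Tgfb2 was closest to Rabggtb (r = 0.9966), Tgfbr1 to Hipk3 (r = 0.9995), Smad2 to Ccdc88c (r = 0.9953) and Smad7 to Efemp1 (r = 0.9988). Over the 6 libraries, 330, 447, 86 and 734 tested genes reached an r of 0.95 with these genes. How many reached the higher values above was not counted.

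Around the 10 genes, 85 further genes of the pathway were listed by role, of which 54 were tested. Of these, 17 were lower and 20 higher in the libraries labelled sg-kiaa1522, against 26.3% of all tested genes in each direction, and their median log2 fold change was -0.009. With the threshold of the study's methods, 5 were lower and 2 higher, against 4.34% and 2.74% of all tested genes.

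In the list of latency and extracellular control, 6 of 14 genes were tested, 2 were lower and 1 was higher, with a median log2 fold change of -0.175. Ltbp4, a latent TGF-β binding protein of elastic matrix, fell from 47.5 ± 3.01 CPM in sg-con to 32.4 ± 3.57 CPM in sg-kiaa1522 (log2 fold change -0.55, SE 0.103, adjusted p = 0.0034). Ltbp1, the binding protein that tethers latent ligand to fibrillin and fibronectin, rose from 457 ± 36 CPM to 561 ± 26.2 CPM (0.29, SE 0.0734, adjusted p = 0.012), a call that was lost without sg-con replicate 2 (adjusted p = 0.055). The activin branch, a sister pathway that also signals through SMAD2 and SMAD3, had 1 lower and 4 higher of 6 tested genes (12 listed) and a median of 0.549. Fst, the secreted activin trap follistatin, rose most of the 54, from 9.81 ± 0.997 CPM to 34.0 ± 1.93 CPM (log2 fold change 1.79, SE 0.109, adjusted p = 3.9e-05). Acvr2a, an activin type II receptor, rose by 1.11 (SE 0.108, adjusted p = 0.00020), while Fstl3, a second activin-binding protein related to follistatin, fell from 27.0 ± 3.14 CPM to 14.2 ± 1.16 CPM (-0.93, SE 0.12, adjusted p = 0.00066).

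Of the receptor partners, 5 of 9 were tested, 2 were lower and 1 was higher (median -0.08). Pmepa1, a membrane protein that holds SMAD2 and SMAD3 away from the receptor, fell from 101 ± 14.9 CPM to 36.3 ± 2.53 CPM (log2 fold change -1.48, SE 0.119, adjusted p = 0.00010). Strap, which helps SMAD7 bind TGFBR1, rose from 191 ± 7.8 CPM to 247 ± 6.32 CPM (0.37, SE 0.0589, adjusted p = 0.0016). The SMAD partners and regulators (17 listed) had 10 higher and 2 lower of 16 tested genes and a median of 0.392. Smad6, the other inhibitory SMAD, fell from 65.1 ± 5.68 CPM to 31.0 ± 0.471 CPM (-1.07, SE 0.0886, adjusted p = 0.00011). Named outside the rule, after their values were seen, are the other lower gene, Ski, the relative of Skil (-0.65, adjusted p = 0.00019), and 3 higher genes that also restrain the pathway, the ubiquitin ligase Smurf2 (0.70, adjusted p = 0.0021) and the corepressors Tgif1 (0.63, adjusted p = 0.0013) and Tgif2 (0.81, adjusted p = 0.0018), so negative regulators were called in both directions. Ep300, an acetyltransferase that SMAD complexes recruit, had the largest rise in the list, from 79.9 ± 15.1 CPM to 148 ± 4.81 CPM (0.89, SE 0.126, adjusted p = 0.0010).

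Of the targets that TGF-β commonly induces, 17 of 29 were tested, and 8 were lower, 3 were higher and 6 were not called, with a median of -0.33. Ccn2 (Ctgf in the files), a matricellular growth factor that YAP also induces, fell from 190.0 ± 6.53 CPM to 52.3 ± 13.2 CPM (log2 fold change -1.87, SE 0.168, adjusted p = 0.00015). Col1a2, a chain of type I collagen, fell from 424 ± 8.11 CPM to 154 ± 9.91 CPM (-1.46, SE 0.0661, adjusted p = 1.5e-05). Col1a2 also makes up most of the fibroblast marker list, whose 7 genes summed to 467 to 486 CPM in sg-con and 167 to 198 CPM in sg-kiaa1522 while Thy1, Lum and Dcn had 3 counts or fewer in every library. In this list Pdgfrb also fell without overlap (41.7, 43.1 and 44.4 CPM against 34.1, 23.1 and 21.6 CPM). Col1a1 did so too (105, 126 and 137 counts against 20, 29 and 34), while Pdgfra overlapped at 7 counts or fewer. The part of these markers in the results was not tested. Sphk1, a kinase that makes sphingosine 1-phosphate, rose from 24.0 ± 2.4 CPM to 46.7 ± 5.16 CPM (0.96, SE 0.115, adjusted p = 0.00047). Of the 4 genes that TGF-β represses in many epithelial cells, Id3 was lower, from 187 ± 21.5 CPM to 110 ± 9.98 CPM (-0.77, SE 0.103, adjusted p = 0.00076), Myc was higher, from 119 ± 3.31 CPM to 206 ± 3.64 CPM (0.78, SE 0.0557, adjusted p = 6.7e-05), and the others were 1 lower and 1 not called.

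**Figure D4:**
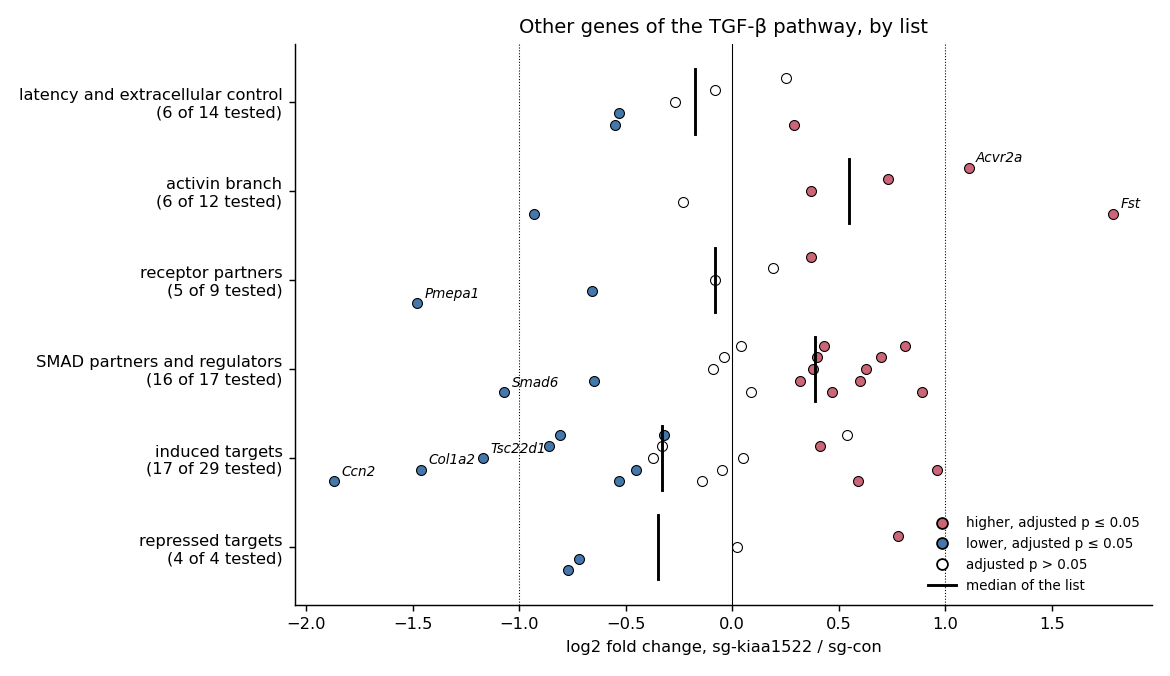
Log2 fold change of the libraries labelled sg-kiaa1522 over sg-con (horizontal axis) for each of the 54 tested genes of the 6 pathway lists (rows, spread vertically for legibility only), filled red where higher, blue where lower and white where not called, with a black bar at each list's median and dotted lines at -1 and 1. The medians run from -0.353 for repressed targets to 0.549 for the activin branch, and the 7 genes past the dotted lines are named.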

How the data were processed

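Total RNA of 6 libraries was sequenced. The authors trimmed adaptors and removed rRNA reads with Seqtk, mapped to GRCm38 with HISAT2 2.0.4 and counted uniquely mapped fragments per gene with StringTie 1.3.0, and deposited raw counts, whole numbers for each Ensembl identifier. The annotation release and the use of strand are not given in the sources used here. Groups and replicate numbers came from the labels.

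The 10046 genes whose counts summed to above 500 went into edgeR's quasi-likelihood test, with TMM scaling, no covariates and Benjamini-Hochberg adjustment over all of them. The versions were edgeR 4.0.16 and DESeq2 1.42.0, with limma 3.58.1, in R 4.3.3. These genes held 99.5% to 99.6% of a library's counts, and TMM factors were 0.989 to 1.01. The biological coefficient of variation came to 0.127. The study's methods name edgeR, the filter and the threshold but no test. A stricter fold that the study gives for a plot was not used here. Within a group the libraries differed by more than counting noise, so none is a second run of the same library, but libraries made from the same culture were not distinguished. Positions, exon lengths and overlaps came from GENCODE M21, in which 34344 of 34745 identifiers were found, and promoter windows from RefSeq on GRCm38.p6. Windows of the 10 genes on chromosome 18, which holds Smad2 and Smad7, were left out by choice. With these set aside, 6 of the 10 genes had a window. The alternatives were DESeq2, 2 other scalings, 2 other filters, the replicate number as a block, each library left out, the other threshold and the mean transcript length.

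The 10 genes, the lists (written by hand) and the tests were chosen with earlier results of these data known. Named in the text are the 10 genes, the targeted gene, Smad4, in each list the called gene with the largest fall and rise (up to 2 per direction past the study's threshold), and the most alike genes. Genes named outside this rule are marked as such, apart from marker genes and those that overlap a named gene. Of the Ensembl genes named Ltbp4 in the files, the one that GENCODE names so was used.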

Additional observations from a re-analysis of the deposited data

How the results depend on the processing

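Of the 9 tested genes, Tgfb2, Tgfb3 and Smad7 stayed called and Tgfbr2 and Smad2 stayed not called in all 12 alternatives. Tgfb1 lost its call in 4 and Tgfbr1 in 6, and Skil gained one in 3. The log2 fold change of Smad3 turned negative without sg-con replicate 2 (-0.001) or 3 (-0.08) and without sg-kiaa1522 replicate 2 (-0.02) or 3 (-0.02), and ranged from -0.08 to 0.11 with 1 library left out. For these calls the cause was not tested, beyond the fewer libraries in a fit that leaves one out.

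With the study's fold threshold, 0 genes instead of 2 were lower and 0 instead of 3 were higher, since none reached a log2 fold change of 1 in either direction, and the pathway lists held 5 lower and 2 higher genes instead of 17 and 20. With 1 library left out, 2 to 3 of the genes were lower and 1 to 3 higher, and 17 to 18 and 18 to 23 pathway genes. With the mean transcript length, the differences of the ligand shares were 4.83 points for Tgfb1, 1.63 for Tgfb2 and -6.46 for Tgfb3, instead of 10.4, 2.27 and -12.7. All genes tested gave 436 lower and 275 higher past the study's threshold, 941 and 767 with every gene that had a count, and 812 and 607 with filterByExpr.

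With the replicate number as a block, 1 gene instead of 3 was higher, since Tgfb1 (0.25, adjusted p = 0.057) and Tgfbr1 (0.36, adjusted p = 0.053) lost their calls, and 2111 genes were lower and 2109 higher instead of 2639 and 2638. Deviations of same-numbered libraries correlated at -0.23, -0.05 and -0.17, so the numbers do not pair the libraries, and no library correlated best with its own number.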

Other observations

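Of the co-receptor genes Tgfbr3 and Eng, neither passed the count filter. These genes, with Bambi and Cdkn2b, are outside the naming rule and were picked after their values were seen. Tgfbr3, which encodes betaglycan, had 0, 2 and 1 counts in sg-con and 23, 43 and 44 counts in the libraries labelled sg-kiaa1522 (adjusted p = 1.3e-05 in edgeR's fit of every gene with a count). Eng, which encodes endoglin, went the other way, with 55, 84 and 61 counts in sg-con and 18, 25 and 33 in sg-kiaa1522 (adjusted p = 0.0016 in the same fit). In neither gene did the groups overlap. Bambi, a decoy receptor, had 0 counts in all 6 libraries, which allows up to between 0.162 and 0.247 CPM for counting error alone. The same holds for Cdkn2b, the cell cycle inhibitor that TGF-β induces in many epithelial cells.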
